A study of Mus musculus with 8 samples.

Results

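The genes described here encode the large hyaluronan-binding proteoglycans of the vessel wall and the proteins that make, anchor and bind hyaluronan: Acan, Vcan, Hapln1, Hapln3, Has1, Has2, Has3 and Cd44. They were chosen by name, with earlier results of these data known. All 8 had a probe set of their own among the 22180 genes of the array table that carry a single gene symbol. Gene expression was measured in the aorta of newborn C57BL/6 mice (postnatal day 0) with no functional gene for fibulin-4, which elastic fibres require for their assembly, and of wild-type mice. The 4 groups were wild-type ascending, wild-type descending, knockout ascending and knockout descending aorta, with 2 arrays each. The ascending segment reached from the aortic valve as far as the ductus arteriosus, and the descending one from the level of the vena cava down to the diaphragm. Each array carries RNA of tissue pooled from 8 pups of 1 genotype, so single animals cannot be seen. The labels describe the mutant only as lacking the gene and give neither the design of the allele nor the sex of the pups. Within a group the arrays are labelled as biological replicates, and the spread between them is the spread between pools.

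Hyaluronan is a long unsulphated sugar chain that the synthases encoded by Has1, Has2 and Has3 extrude through the plasma membrane. Aggrecan (Acan) and versican (Vcan) bind it through their amino-terminal domain and carry many chondroitin sulphate chains, which hold water and let tissue resist compression. Link proteins of the Hapln family lock the proteoglycan onto the hyaluronan chain, and Cd44 is the main receptor that ties hyaluronan to the cell surface. Versican is the classical proteoglycan of this family in arteries, while aggrecan is best known from cartilage.

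The deposited values are on a log2 scale, so a difference of 1 is a doubling. Their median over all probe sets lay between 4.68 and 4.89 on the 8 arrays. Both wild-type replicate 2 arrays had a narrower distribution. Their interquartile range over genes was 1.80 (ascending) and 1.74 (descending), against 2.14 to 2.28 on the other 6. Many of the results that move by over 1.5 times without these narrow arrays are also given without them. Precision is limited by the number of arrays, with standard errors of log2 differences whose median was 0.30 for 1 segment and 0.21 for the average of both. The smooth muscle markers Acta2 (12.1 to 12.4), Tagln (10.9 to 11.5) and Myh11 (8.70 to 9.22) were high on every array. The targeted gene was not analysed here. None of the 8 genes lay among the dimmest 25%.

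Acan was the gene of this group that differed most, and it did so both by genotype and by segment. Its log2 value was 9.47 and 9.37 on the wild-type ascending arrays and 10.1 and 10.3 on the knockout ascending arrays. In the descending aorta it was 8.31 and 8.02 in wild-type and 9.48 and 9.15 in the knockout. Both knockout arrays of a segment therefore lay above both wild-type arrays of that segment, and both ascending arrays of a genotype above both descending arrays. The group means were 9.42 ± 0.076, 10.2 ± 0.18, 8.16 ± 0.21 and 9.31 ± 0.24 (SD, n = 2) in the order just given. From low to high the groups ran wild-type descending, knockout descending, wild-type ascending and knockout ascending. The middle neighbours, knockout descending and wild-type ascending, differed by 0.11 and their arrays overlapped, while the outer neighbours were apart by 0.83 and 0.60 between the nearest arrays.

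The first comparison asks what loss of fibulin-4 goes with. Acan was higher in the knockout by 0.77 (SE 0.26) in the ascending and by 1.15 (SE 0.26) in the descending aorta, or 1.71-fold and 2.22-fold. Averaged over both segments the difference was 0.96 (SE 0.18), or 1.95-fold with a 95% confidence interval of 1.46 to 2.59. It did not pass the threshold after adjustment over all genes (limma adjusted p = 0.132 averaged, 0.469 ascending and 0.509 descending; unadjusted p = 0.000447, 0.0145 and 0.00145). Of the 22180 genes 0.0721% passed in the averaged comparison, 0% in the ascending and 0.00451% in the descending aorta. Knockout arrays above wild-type arrays in both segments, as for Acan, were seen for 7.81% of all genes. Without both narrow wild-type arrays the averaged difference was 0.86 (SE 0.20). The knockout effect was not shown to differ between the segments: it was smaller by 0.37 in the ascending aorta (95% interval of the ascending minus the descending effect -1.20 to 0.45, adjusted p = 1.00).

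The second comparison asks how the segments differ. Acan was higher in the ascending than in the descending aorta by 1.25 (SE 0.26) in wild-type and by 0.88 (SE 0.26) in knockout mice, or 2.39-fold and 1.84-fold. These differences did not pass either (limma adjusted p = 0.359 and 1.00, unadjusted p = 0.000791 and 0.00733), and 0.00902% of genes passed in wild-type and 0% in the knockout. The ascending arrays lay above the descending ones, without overlap, for 15.9% of all genes in wild-type and 18.3% in the knockout. The wild-type difference was 1.16 (SE 0.32) without both narrow arrays.

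**Figure D1:**
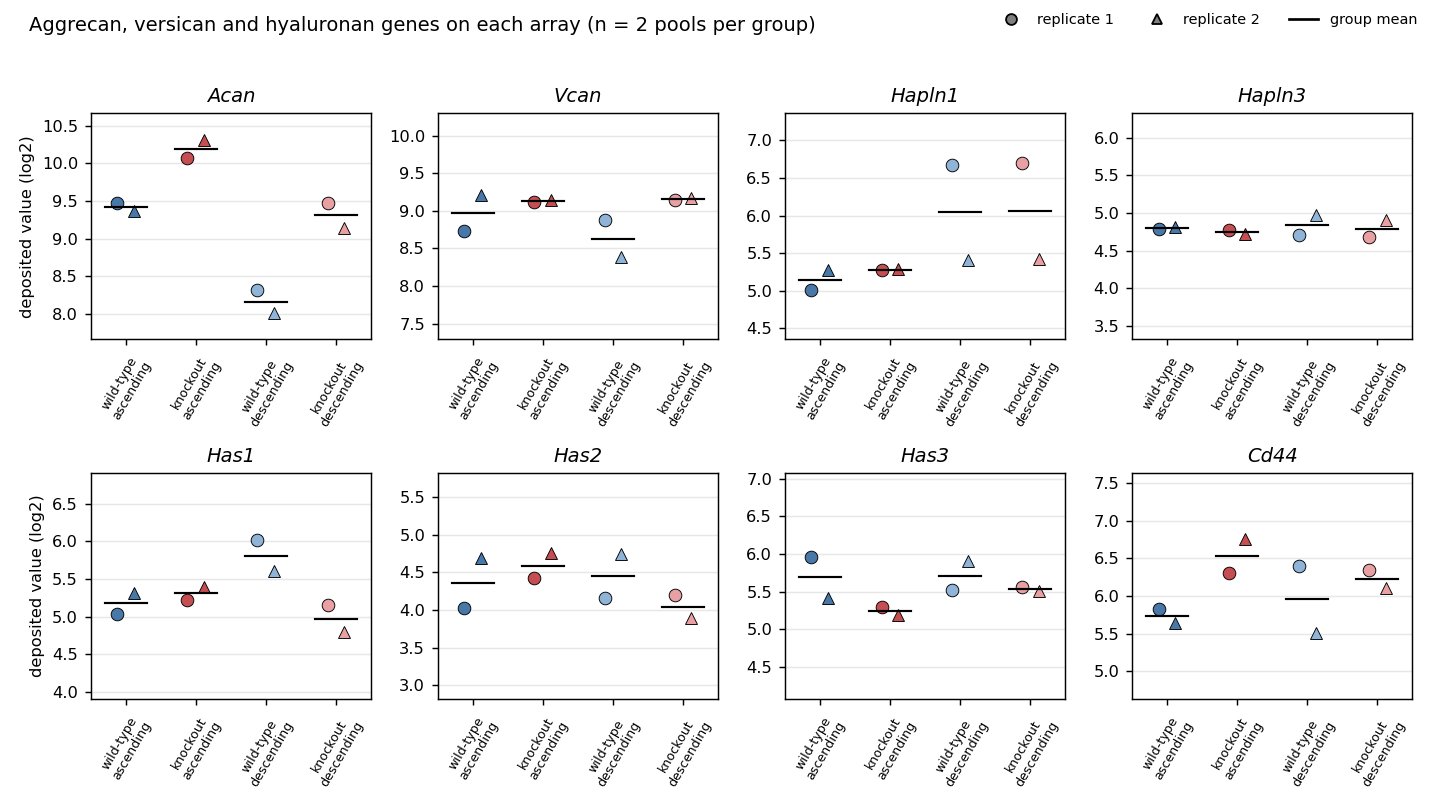
Deposited log2 value (vertical axes, each spanning the same range of log2 units) of the 8 genes on each array, by genotype and segment (horizontal axes). Circles are replicate 1, triangles replicate 2 and bars the mean of 2 pools. Acan runs from 8.02 to 10.3, with knockout above wild-type in each segment; the Hapln3 arrays lie between 4.67 and 4.97.

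The promoter windows of Acan and of its relative Vcan are shown because Acan differed most between the groups and Vcan is the other large proteoglycan described here. Each window holds 250 bases before and 50 after the start of the gene in the RefSeq annotation of GRCm38.p6, 5′ to 3′ on the strand of the gene, and the capitals mark matches to the motifs searched. The Acan window is chr7:79052976-79053275 on the plus strand and the Vcan window chr13:89742463-89742762 on the minus strand.
Acan: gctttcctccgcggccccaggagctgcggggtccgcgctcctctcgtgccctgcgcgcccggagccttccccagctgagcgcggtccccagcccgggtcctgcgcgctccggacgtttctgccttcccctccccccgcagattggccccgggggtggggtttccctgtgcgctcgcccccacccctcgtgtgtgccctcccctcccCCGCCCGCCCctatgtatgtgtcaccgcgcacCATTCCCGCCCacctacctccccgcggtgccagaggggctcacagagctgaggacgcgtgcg
Vcan: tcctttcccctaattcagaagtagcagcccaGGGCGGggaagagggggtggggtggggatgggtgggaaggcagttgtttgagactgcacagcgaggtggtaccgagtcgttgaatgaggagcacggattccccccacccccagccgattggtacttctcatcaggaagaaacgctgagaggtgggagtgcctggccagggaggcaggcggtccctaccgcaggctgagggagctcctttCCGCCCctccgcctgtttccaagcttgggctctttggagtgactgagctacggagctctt
The motifs were the GC box (GGGCGG), the AP-1 site (TGANTCA), a SOX motif (AACAAT), a TEAD motif (GGAATG) and the TATA box (TATAAA), each on both strands. The Acan window held 3 GC boxes, at -44, -40 and -7 from the gene start, and 1 TEAD motif at -12. The first pair of GC boxes overlaps, and the TEAD motif overlaps the third. The Vcan window held 2 GC boxes, at -219 and -10. A GC box was present in 35.9% and a TEAD motif in 14.6% of the promoter windows of 27025 genes. The G and C content was 74% for Acan and 61% for Vcan against a median of 52.7%. Such matches are a description of the letters, and 6 of the 8 genes had a window in the table used. In this annotation Hapln3 is the coding gene next to Acan on chromosome 7, and Hapln1 the one next to Vcan on chromosome 13, so each of these proteoglycan genes lies beside a link protein gene.

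Vcan was measured at a log2 value of 8.73 and 9.21 in wild-type and 9.12 and 9.14 in knockout ascending aorta. The descending values were 8.88 and 8.38 in wild-type and 9.15 and 9.17 in the knockout. The knockout arrays lay close together, between 9.12 and 9.17 in both segments, and the wild-type arrays were spread from 8.38 to 9.21 around and below them. Vcan was higher in the knockout by 0.53 (SE 0.28) in the descending aorta, where the arrays did not overlap, a pattern shared by 21.6% of all genes; it was 0.28 without both narrow arrays and ran from 0.28 to 0.77 when 1 array was left out. In the ascending aorta the difference was 0.16 (SE 0.28) and the arrays overlapped. Averaged over both segments it was 0.34 (SE 0.20), or 1.27-fold with a 95% interval of 0.935 to 1.73 (limma adjusted p = 0.530), and it was 0.22 without wild-type descending replicate 2 and 0.23 without wild-type ascending replicate 1. The segments differed by 0.34 (SE 0.28) in wild-type and by -0.026 (SE 0.28) in the knockout (ascending minus descending). The wild-type segment difference was -0.15 without both narrow arrays, so its direction rested on them. The ascending knockout effect was -0.075 when wild-type ascending replicate 1 was left out and 0.40 when replicate 2 was. Over the 8 arrays Acan and Vcan had a Pearson correlation of 0.70, and of 0.43 over the 6 arrays without the narrow ones; these arrays share genotype and segment, and no test was made.

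No knockout effect on a link protein gene passed the test. Hapln1, the cartilage link protein that also occurs in heart valves and vessels, had log2 values of 5.01 and 5.28 in wild-type and 5.28 and 5.29 in knockout ascending aorta. In the descending aorta it was 6.68 and 5.41 in wild-type and 6.70 and 5.42 in the knockout. In each genotype 1 descending pool, replicate 1, was thus well above the other, and the knockout and wild-type values of the same replicate number were nearly equal. The knockout effect was 0.14 (SE 0.48), or 0.27 without both narrow arrays, in the ascending aorta. In the descending aorta the effect was 0.019 (SE 0.48), or -0.61 without both narrow arrays. Its 95% interval in the descending aorta, 0.483-fold to 2.12-fold, leaves room for a doubling either way. The ascending aorta was lower than the descending by 0.90 in wild-type (95% interval -1.97 to 0.17) and by 0.78 in the knockout (-1.85 to 0.29). Both rested on the descending replicate 1 pools: without that array the difference was -0.27 in wild-type and -0.14 in the knockout. Without the descending replicate 2 array it was -1.53 and -1.42, and without both narrow arrays the wild-type difference was -1.66. Ascending arrays below descending ones without overlap, as Hapln1 had in both genotypes, were found for 14.1% of all genes in wild-type and 20.8% in the knockout. Hapln3, a link protein gene expressed in smooth muscle and other tissues, was the steadiest of the group, with 4.67 to 4.97 on all 8 arrays; the knockout ascending arrays, 4.77 and 4.72, lay just below the wild-type ones, 4.78 and 4.81. Its averaged knockout effect was -0.049 (SE 0.17), or 0.967-fold with a 95% interval of 0.739 to 1.27.

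No hyaluronan synthase gene passed the test, and averaged over the segments all 3 lay below 0 (Has1 at -0.35, Has2 at -0.089 and Has3 at -0.31). Has1, the least active synthase in most tissues, was at 5.04 and 5.31 in wild-type and 5.22 and 5.40 in knockout ascending aorta, and at 6.02 and 5.60 in wild-type and 5.15 and 4.80 in knockout descending aorta. The wild-type descending arrays were the highest of all 8 and the knockout descending arrays lay below them. Has1 was lower in the knockout descending aorta by 0.84 on the log2 scale (95% interval of the difference -1.45 to -0.22), or 1.79-fold. The ascending difference was 0.13 (SE 0.27), or 0.27 without both narrow arrays. Neither passed (limma adjusted p = 0.759 and 0.905), and knockout descending arrays below wild-type ones without overlap were seen for 15.8% of all genes. The test of the difference between the 2 effects gave 0.97 (SE 0.39, unadjusted p = 0.0318, adjusted p = 1.00). An unadjusted p under 0.05 in that test was found for 3.3% of all genes (1.62% higher, 1.68% lower) and for 1 of the 8 described here, Has1. In wild-type mice Has1 was lower in the ascending than in the descending aorta (-0.63, SE 0.27, limma adjusted p = 0.798), and the difference was -0.98 without both narrow arrays.

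Has2, the main synthase of the developing heart and vessels, lay between 3.89 and 4.75. Its values were 4.03 and 4.68 in wild-type and 4.43 and 4.75 in knockout ascending aorta, and 4.16 and 4.75 in wild-type and 4.20 and 3.89 in knockout descending aorta. Knockout and wild-type arrays overlapped in both segments. The knockout effect was 0.23 (SE 0.32) in the ascending and -0.41 (SE 0.32) in the descending aorta, and its average was -0.089 (95% interval -0.60 to 0.42). Without both narrow arrays these values were 0.56, -0.12 and 0.22, and leaving out wild-type descending replicate 1 gave -0.71 in the descending aorta. A further probe set annotated to both Has2 and its antisense gene Has2os ran from 3.72 to 4.48 and was not tested, because its signal cannot be given to one of them.

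Has3 was at 5.96 and 5.41 in wild-type and 5.29 and 5.19 in knockout ascending aorta, with 5.52 and 5.90 against 5.57 and 5.51 in the descending segment. The knockout ascending arrays lay below the wild-type ones, as for 18.3% of all genes, and the descending arrays overlapped. The difference was -0.45 (SE 0.28) in the ascending and -0.17 (SE 0.28) in the descending aorta. The ascending value was -0.17 when wild-type ascending replicate 1 was left out and -0.72 when replicate 2 was, and without both narrow arrays the values were -0.72 (limma unadjusted p = 0.0221) and 0.019. The averaged effect of -0.31 (95% interval -0.75 to 0.13) did not pass either (limma adjusted p = 0.568).

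Cd44 was higher in knockout than in wild-type ascending aorta, with log2 values of 6.30 and 6.75 against 5.82 and 5.64. In the descending aorta it was 6.34 and 6.11 in the knockout and 6.39 and 5.51 in wild-type, and these arrays overlapped. The ascending difference was 0.80 (SE 0.33), or 1.74-fold with a 95% interval of 1.04 to 2.91, and did not pass (limma adjusted p = 0.537, unadjusted p = 0.0372). Ascending knockout arrays above wild-type arrays without overlap were seen for 21.5% of all genes. In the descending aorta the difference was 0.27 (SE 0.33), and it was -0.16 without wild-type descending replicate 2. The averaged difference of 0.54 (SE 0.23, adjusted p = 0.426) was 0.27 (SE 0.21) without both narrow arrays and 0.32 without wild-type descending replicate 2 alone. The groups ran, from low to high, wild-type ascending, wild-type descending, knockout descending and knockout ascending, and each neighbouring pair overlapped. No difference in Cd44 between the segments passed: it was -0.22 (SE 0.33) in wild-type and 0.30 (SE 0.33) in the knockout. The wild-type value was -0.57 without both narrow arrays.

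**Figure D2:**
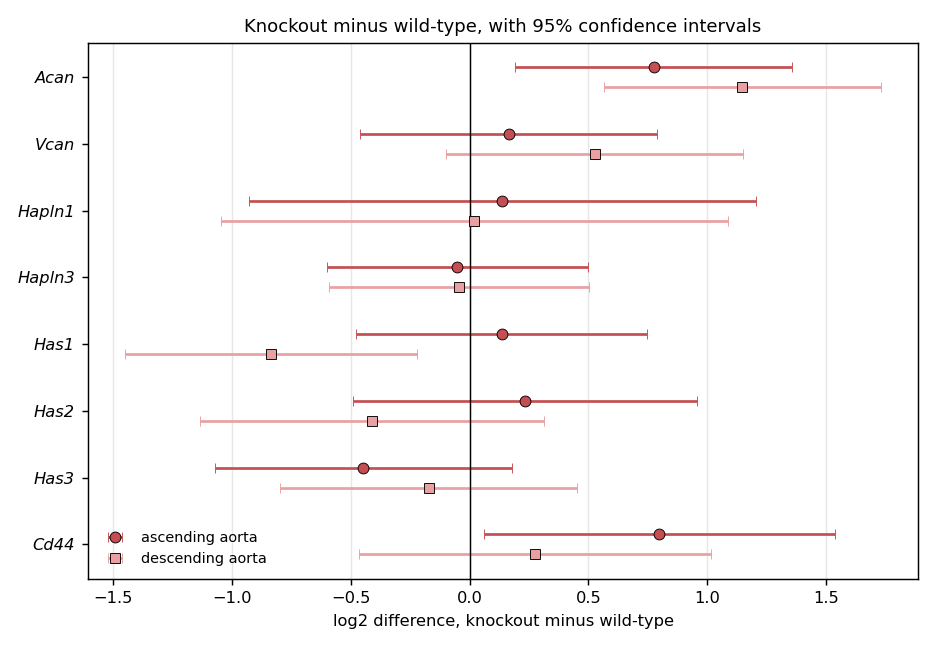
Log2 difference, knockout minus wild-type (horizontal axis), of the 8 genes in the ascending (circles) and descending aorta (squares), with 95% confidence intervals from limma over 4 groups of 2 arrays. The Acan intervals lie above 0 in both segments, the Cd44 interval in the ascending and the Has1 interval, on the other side of 0, in the descending aorta; none of these differences passed after adjustment over all genes.

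Counted together, 0 of the 8 genes passed limma's test at an adjusted p under 0.05 in any of the 6 comparisons made. At an unadjusted p under 0.05 there were 2 higher in the knockout ascending aorta, Acan and Cd44, and 0 lower, beside 5.31% and 3.6% of all genes (8.9% in either direction). In the descending aorta there was 1 higher, Acan, and 1 lower, Has1, beside 3.63% and 2.32% (5.95%). Averaged over the segments there were 2 higher, Acan and Cd44, and 0 lower, beside 7.57% and 3.83% (11.4%). The count was 1, Acan, without both narrow wild-type arrays. Between segments Acan was higher and Has1 lower in the wild-type ascending aorta (3.21% and 2.98% of all genes, 6.19% together). In the knockout Acan was higher in the ascending aorta and 0 were lower (2% and 2.04%, 4.04% together). In the knockout ascending aorta arrays did not overlap for 2 genes higher (Acan, Cd44) and 2 lower (Hapln3, Has3), beside 21.5% and 18.3% of all genes. In the descending aorta they did not overlap for 2 higher (Acan, Vcan) and 1 lower (Has1), beside 21.6% and 15.8%. Arrays were apart in both segments for Acan alone among those higher, beside 7.81% of all genes, and for 0 lower, beside 4.04%. Between knockout segments arrays were apart for 3 higher in the ascending aorta (Acan, Has1, Has2) and 3 lower (Vcan, Hapln1, Has3). The shares of all genes were 18.3% and 20.8%. Between wild-type segments arrays were apart for 1 higher (Acan) and 2 lower (Hapln1, Has1), beside 15.9% and 14.1% of all genes. The median averaged difference of the 8 genes was 0.015, with 4 above and 4 below 0, against a median of -0.0013 over all genes. It was 0.12 without both narrow arrays (-0.0094 over all genes), 0.11 when arrays were centred on their medians (0.090) and 0.070 when they were quantile normalized again (0.048). The median averaged difference depended on how bright genes were: it was 0.24 for the brightest 20% of all genes, among them Acan and Vcan, 0.14 for the 20% below, among them Hapln1, Has3 and Cd44, and -0.14 for the dimmest 20%.

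**Figure D3:**
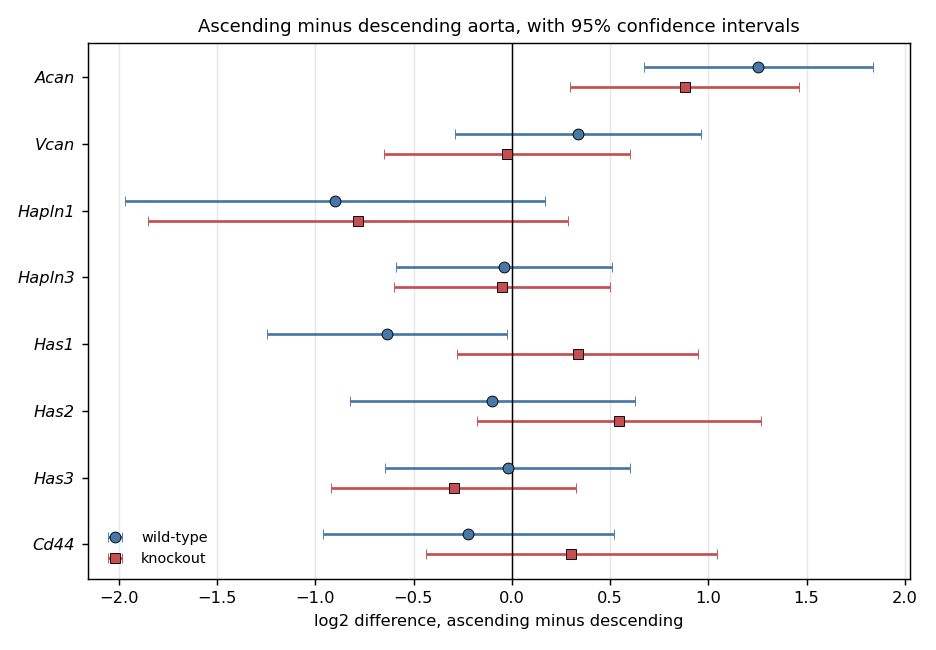
Log2 difference, ascending minus descending aorta (horizontal axis), of the 8 genes in wild-type (circles) and knockout mice (squares), with 95% confidence intervals from limma. The Acan intervals lie above 0 in both genotypes and Hapln1 is at -0.90 and -0.78 with wide intervals that include 0.

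Bulk tissue holds several cell types, and fewer cells of a type cannot be told apart from less RNA per cell. Aggrecan is abundant in cartilage, which lies near the dissected vessel, so 18 cartilage markers were examined beside Acan, all of them measured. Their summed level, on a log2 scale, was 9.12 to 9.22 in wild-type ascending, 9.04 to 9.11 in knockout ascending, 9.10 to 9.19 in wild-type descending and 9.27 to 9.42 in knockout descending aorta. The cartilage sum was thus lower in the knockout in the ascending and higher in the descending aorta, in each case without overlap. On knockout descending replicate 2, which had the highest sum, the marker Snorc was at 6.95, against 4.57 on replicate 1. In wild-type descending aorta it was 4.55 and 4.32. Whether the descending sums stay apart without Snorc was not tested. The defining markers Matn1 and Cnmd lay among the dimmest 25% of genes, and Col2a1, the cartilage collagen, ran from 5.06 to 5.83. Between wild-type segments the cartilage sums overlapped, and over the 8 arrays their correlation with Acan was -0.22. Of the cartilage markers 0 had an unadjusted p under 0.05 in the knockout ascending aorta, beside 8.9% of all genes. In the descending aorta 1 was higher and 1 lower, beside 3.63% and 2.32% of all genes.

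The sum of 6 brown fat markers was lower in the knockout in both segments, at 10.8 to 10.9 against 11.1 to 11.3 in the ascending and 11.6 against 12.4 to 12.6 in the descending aorta, and it was higher in the descending than in the ascending segment. All 6 lay below 0 in the knockout effect of either segment, and the defining marker Ucp1 was at 8.80 and 7.04 in wild-type descending aorta and between 4.22 and 5.37 on the other arrays. Fabp4 weighed most on the sum, at 10.5 to 12.1, and its ascending knockout effect was -0.13 (SE 0.25). The Pearson correlation of the brown fat sum with Acan over the 8 arrays was -0.94, a description of arrays that share genotype and segment. Smooth muscle markers had a sum of 13.2 to 13.3 in wild-type and 13.4 to 13.6 in knockout ascending aorta, with 13.1 to 13.2 and 13.3 in the descending segment, and correlated with Acan at 0.88. The sum of 8 skeletal muscle markers was 11.01 to 12.54 in wild-type ascending aorta and 8.74 to 10.3 in the other groups, and its correlation with Acan was 0.27. Of 10 valve and cushion markers 9 were measured, with sums of 11.80 to 11.98 in wild-type and 12.02 to 12.20 in the knockout. Postn made up most of these sums, at 11.45 to 11.65 in wild-type and 11.62 to 11.84 in the knockout. In the averaged knockout effect 6 of the 9 lay above and 3 below 0. Their median was 0.15, or -0.069 without both narrow arrays. Between wild-type segments 3 of these 9 lay above and 6 below 0 (ascending minus descending), with a median of -0.041. Tbx20, a defining marker, stood highest among them at 1.08 (SE 0.29, limma adjusted p = 0.555). Nfatc1, the other measured defining marker, stood lowest at -0.56. Its values were 5.39 and 5.43 in wild-type ascending and 6.24 and 5.71 in wild-type descending aorta. The endothelial sum correlated with Acan at -0.61, or -0.83 over the 6 arrays without the narrow ones. The valve and cushion sum did so at 0.45 and the leukocyte sum at 0.33. For 8 mesothelium and epicardium markers it was 0.38, or 0.15 over those 6 arrays. All 8 lay above 0 between wild-type segments (ascending minus descending), beside 11476 of all 22180 genes. The part of these cells in the Acan values was not tested.

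Cd44 is also carried by leukocytes. The sum of 10 leukocyte markers was 9.84 to 10.3 in wild-type and 11.04 to 11.32 in knockout ascending aorta, and 10.5 to 10.8 and 10.8 to 11.4 in the descending segment. In the ascending aorta 7 of the 10 had an unadjusted p under 0.05 and were higher in the knockout, beside 5.31% of all genes. The median difference of the 10 was 1.19, or 0.93 without both narrow arrays. The common leukocyte antigen Ptprc ran from 5.29 to 5.70 in wild-type and from 6.42 to 7.12 in knockout ascending aorta, and the macrophage marker Cd68 from 6.96 to 7.33 and from 7.86 to 8.03. Over the 8 arrays the correlation of the leukocyte sum with Cd44 was 0.75. It was also 0.75 for the smooth muscle sum and 0.73 for the valve and cushion sum. The other marker sums lay between -0.44 and -0.15. Over the 6 arrays without the narrow ones the values were 0.62 for leukocytes, 0.73 for smooth muscle and 0.42 for valve and cushion. Endothelial markers moved the other way in the ascending aorta, with a sum of 10.4 to 10.8 in wild-type and 9.70 to 9.86 in the knockout. Their part in the Cd44 values was not tested.

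**Figure D4:**
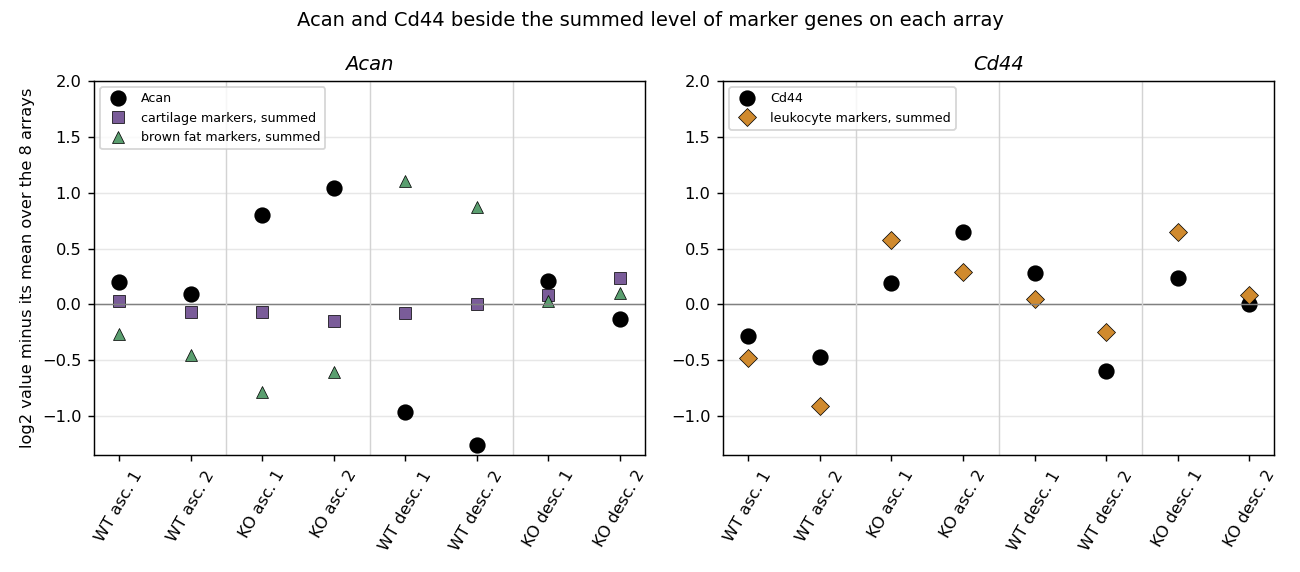
Acan with the summed level of cartilage and brown fat markers (left) and Cd44 with that of leukocyte markers (right), as log2 values minus their mean over the 8 arrays (vertical axes), for each array (horizontal axes; WT is wild-type, KO knockout, asc. and desc. the segments, and the digit the replicate). Acan is lowest where the brown fat sum is highest, on the wild-type descending arrays, and the cartilage sum stays within 9.04 to 9.42 before centring.

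Genes with the most similar profile were found for the 4 genes whose values span at least 1 over the 8 arrays. The candidates were 7333 other genes with such a span. Predicted genes and genes of microRNA, small nucleolar RNA, olfactory receptors and vomeronasal receptors had been left out. Closest to Acan were Flnc, an actin-binding filamin (Pearson r = 0.98), Smurf1, a ubiquitin ligase (r = 0.97), and Lrig3, a transmembrane protein with leucine-rich repeats (r = 0.96). Flnc was at 6.76 and 6.96 in wild-type and 7.28 and 7.50 in knockout ascending aorta, and at 6.23 and 6.04 against 6.75 and 6.72 in the descending segment. It thus had the same order of groups as Acan. Closest to Cd44 were Mertk, a receptor of phagocytes (r = 0.97), Ppil4 (r = 0.97) and Rlim (r = 0.97). Closest to Hapln1 were Tmem106a (r = 0.95), Fgd5, known from endothelium (r = 0.95), and Zfp119a (r = 0.93), and closest to Has1 were Apoo (r = 0.96), Pot1b (r = 0.94) and Tarm1 (r = 0.94). Over the 6 arrays without the narrow ones the 3 genes near Acan kept r between 0.95 and 0.98. With 8 arrays in 4 groups, high values are found easily among so many genes, and no test was made.

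Around these genes, 75 of 81 listed genes that supply sugars, build chondroitin sulphate, degrade hyaluronan, cleave the proteoglycans or bind them were measured. None passed at an adjusted p under 0.05 in any comparison. The lists were chosen with earlier results of these data known, so the counts that follow describe them and do not test the pathway. Averaged over the segments 56 lay above and 19 below 0, beside 11053 and 11127 of all 22180 genes, with a median difference of 0.21. Over all genes that median depended on brightness, with 0.24 for the brightest 20%, 0.14 for the 20% below and -0.14 for the dimmest 20%. The listed genes were not compared with genes of like brightness. At an unadjusted p under 0.05 there were 16 higher and 0 lower, beside the 7.57% and 3.83% of all genes given above. In the ascending aorta 9 were higher and 0 lower at that level, and the same numbers held in the descending aorta, beside 5.31% and 3.6% of all genes in the ascending and 3.63% and 2.32% in the descending. Without both narrow arrays the median difference of some of these lists moved by over 1.5 times, and is given with each.

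Of the proteases that cleave these proteoglycans 7 of 7 lay above 0 in the averaged comparison, with a median of 0.37. At an unadjusted p under 0.05 there were 2 higher, beside 7.57% of all genes. In the ascending aorta 5 of the 7 lay above and 2 below 0, with a median of 0.086. In the descending aorta all 7 lay above 0, with a median of 0.28. Adamts8, which can cleave aggrecan, was at 5.03 and 4.60 in wild-type and 6.06 and 5.96 in knockout ascending aorta. In the descending aorta it was 4.89 and 4.81 against 6.08 and 5.74. No knockout array overlapped a wild-type array, and the averaged difference was 1.13 (SE 0.19, limma adjusted p = 0.0892). Knockout arrays lay above wild-type arrays within both segments for 7.81% of all genes. Adamts1, a versican-cleaving protease of the vessel wall, stood at 0.73 (SE 0.20, adjusted p = 0.273). Adamts15 stood at -0.12 (SE 0.26) in the ascending and 0.86 (SE 0.26) in the descending aorta.

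Among 15 genes for receptors and binding proteins of hyaluronan 9 lay above 0, with a median of 0.056, or 0.0068 without both narrow arrays. Tnfaip6, a secreted protein that binds hyaluronan and moves protein chains onto it, was at 6.00 and 5.50 in wild-type and 6.66 and 7.09 in knockout ascending aorta, and at 5.87 and 6.10 against 7.29 and 6.79 in the descending segment. Its knockout arrays all lay above its wild-type arrays, with an averaged difference of 1.09 (SE 0.21, limma adjusted p = 0.132). Such a separation within both segments was seen for 7.81% of all genes. Layn, the receptor layilin, stood at 0.52 (SE 0.17), with 0.21 in the ascending and 0.82 in the descending aorta.

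For hyaluronan breakdown 8 of 10 listed genes were measured, with a median of 0.26; the cell surface hyaluronidase Cemip2 stood at 0.49 (SE 0.22). The 9 genes of UDP-sugar supply had a median of 0.21, or 0.046 without both narrow arrays and 0.13 after quantile normalization. Gfpt2, the entry enzyme of the hexosamine pathway, stood at 0.48 (SE 0.18), and Uap1, which makes the activated sugar, at 0.48 (SE 0.18). The other lecticans and link proteins, Bcan, Ncan, Hapln2 and Hapln4, known from brain, stood between -0.30 and 0.0026. Of these 0 of 4 were past an unadjusted p of 0.05, beside 11.4% of all genes. Their median was -0.14, and -0.23 without both narrow arrays.

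Of 22 genes of chondroitin sulphate synthesis 20 were measured and 15 lay above 0, with a median of 0.20, or 0.085 without both narrow arrays and 0.11 after quantile normalization. Fam20b, a kinase that acts on the linker of the sugar chain, stood at 1.05 (SE 0.24, limma adjusted p = 0.195), and Dse, an epimerase that turns chondroitin into dermatan sulphate, at 0.76 (SE 0.17, adjusted p = 0.188). Dse was at 5.50 and 5.45 in wild-type and 6.57 and 6.56 in knockout ascending aorta, a difference of 1.09, and at 6.25 and 5.88 against 6.53 and 6.48 in the descending segment. Chst14, a sulphotransferase of dermatan, stood at 0.45 (SE 0.19).

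Of 7 listed matrix ligands of the lecticans and of Cd44, 5 were measured and 4 lay above 0, with a median of 0.48. Fn1, which encodes fibronectin, stood at 0.90 (SE 0.18), Tnc, which encodes tenascin C, a ligand of the lectin domain of the lecticans, at 0.64 (SE 0.17), and Fbln2, which encodes fibulin-2, a versican ligand, at 0.48 (SE 0.17). All 7 listed partners of Cd44 lay above 0, with a median of 0.31, or 0.20 without both narrow arrays. Msn, the actin linker moesin that binds the tail of Cd44, stood at 0.81 (SE 0.19), Mmp9 at 0.59 (SE 0.16) and Mmp14, which cleaves Cd44, at 0.42 (SE 0.18). Their limma adjusted p lay between 0.132 and 0.419.

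**Figure D5:**
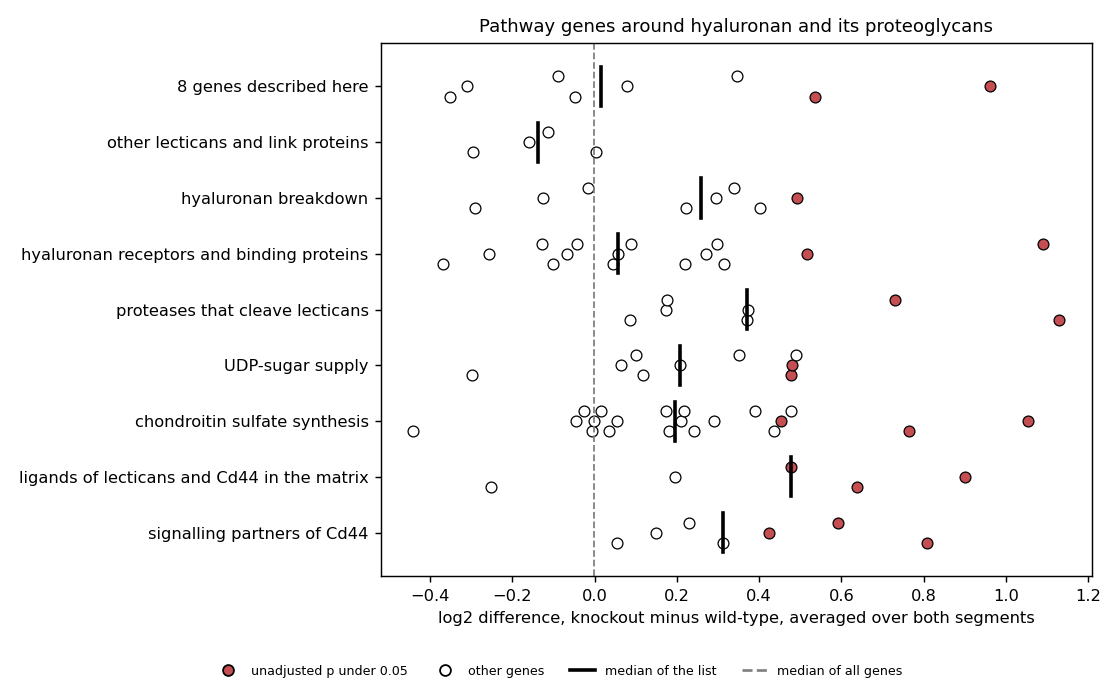
Averaged log2 difference, knockout minus wild-type (horizontal axis), of the 8 genes described here and of 75 measured pathway genes (points), by list (vertical axis). Filled points have an unadjusted p under 0.05, short bars are list medians and the dashed line is the median of all genes; the 2 filled points of the top row are Cd44 (0.54) and Acan (0.96).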

How the data were processed

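RNA of pooled newborn aortic segments was amplified from 5 ng of total RNA and labelled with biotin for 8 arrays, as the labels' protocols state. The values the authors deposited are log2 values, 1 for each probe set and array. Per the submitters' processing notes, RMA in Affymetrix Expression Console produced them. The software version, the build and how probe sets were defined: not given in the sources used here.

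The table held 41345 probe sets, of which 23521 had 1 gene symbol in the platform annotation, 1814 several and 16010 none there. The probe set with the highest mean was kept for each of 22180 genes. Values were analysed in R 4.3.3 with limma 3.58.1, which fitted 1 mean per group over all 8 arrays (4 residual and 5.52 prior degrees of freedom), and p-values were adjusted by Benjamini-Hochberg over all genes, with a threshold of 0.05. The procedure was run on simulated data with independent noise, of equal spread on all arrays for each gene. That setting leaves out the narrow distribution of both wild-type replicate 2 arrays. No block was used: groups share replicate numbers, and no label says that equal numbers mark paired pools. The members and the gene lists were chosen with earlier results of these data known. Named pathway genes are up to 4 per list with the smallest p in the averaged comparison among those with an unadjusted p under 0.05 in a knockout effect. Named marker genes are the defining ones of each list and single genes that weigh much on a marker sum. Similar profiles are the 3 highest Pearson correlations. Marker sums add values on the linear scale. Promoter sequences are from RefSeq, GRCm38.p6, and figures were drawn with matplotlib 3.10.9. The alternatives tried are in the closing section.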

Additional observations from a re-analysis of the deposited data

How the results depend on the processing

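No alternative brought any of the 8 genes past an adjusted p of 0.05 in any comparison. The 18 alternatives were array weights, the replicate block, median centring, quantile normalization once more, a filter on the dimmest 25%, averaging the probe sets of a gene, testing every probe set, the trend and robust options of limma, fitting only the groups compared (which gives no averaged value), leaving out each array in turn and, chosen after seeing the data, leaving out both wild-type replicate 2 arrays. Acan kept its direction in all of them. Its averaged difference ran from 0.85 to 1.05, with adjusted p from 0.0621 to 0.525 and unadjusted p under 0.05 in 17 of 17, and its wild-type segment difference from 1.11 to 1.40. Has1 in the descending aorta ran from -1.05 to -0.63 and Cd44 in the ascending aorta from 0.57 to 1.02. The number of the 8 genes with an unadjusted p under 0.05 was 2, with 0 to 3 under the alternatives, in the ascending aorta, 2 (1 to 2) in the descending, 2 (1 to 3) averaged, 1 (0 to 2) for the difference between segments, 2 (1 to 3) between wild-type and 1 (0 to 1) between knockout segments.

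Of 848 recomputed differences 51 had the other sign, all of values that had not passed; the cause was not tested. With median centring these were Hapln3 (0.018 ascending, 0.068 descending, 0.043 averaged), Has2 (0.00245 averaged) and Has3 (0.0040 between wild-type segments); that centring moved the median of all genes in the descending aorta from 0.030 to 0.14. After quantile normalization they were Vcan (-0.0040 ascending), Hapln3 (0.017 ascending, 0.059 descending, 0.038 averaged) and Has2 (0.021 averaged). Without both narrow wild-type arrays they were Hapln1 (-0.61 descending, -0.17 averaged), Hapln3 (0.091 descending, 0.027 averaged, 0.079 between wild-type segments), Has2 (0.22 averaged), Has3 (0.019 descending, 0.45 between wild-type segments), Cd44 (-0.16 descending) and Vcan (0.12 for the difference between segments, -0.15 between wild-type segments). Leaving out 1 array, the ascending effect ran from -0.075 to 0.40 for Vcan, from -0.0040 to 0.27 for Has1 and from -0.096 to 0.56 for Has2. The descending effect ran from -0.62 to 0.66 for Hapln1, -0.18 to 0.091 for Hapln3, -0.36 to 0.019 for Has3 and -0.16 to 0.71 for Cd44. The averaged effect ran from -0.24 to 0.40 for Hapln1, -0.12 to 0.019 for Hapln3 and -0.25 to 0.075 for Has2. The difference between segments ran from -0.52 to 0.76 for Hapln1, -0.14 to 0.13 for Hapln3 and -0.55 to 0.0026 for Has3. The wild-type segment difference ran from -0.18 to 0.095 for Hapln3, -0.43 to 0.23 for Has2, -0.30 to 0.26 for Has3 and -0.66 to 0.22 for Cd44, and the knockout one from -0.17 to 0.069 for Hapln3.

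With the replicate block 0 of the 8 genes passed, and the averaged Acan difference was 0.96 with an adjusted p of 0.141. Deviations of same-numbered arrays correlated at 0.29 between the wild-type groups and at -0.078 to 0.12 between the other pairs of groups. The numbers were not taken as pairs. The block was the replicate number over all 4 groups, and a pairing of segments within a genotype was not fitted. The labels do not say whether both segments came from the same pups, and the averaged standard errors treat their pools as separate. Over all genes, 16, 0 and 1 passed for the averaged, ascending and descending effects, and 25, 11 and 7 without both narrow arrays. Only 2 pools per group limit the precision, and with no detection calls used here, signal over background could not be judged for dim genes such as Has2.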
